A study of Homo sapiens with 15 samples.

Results

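The pre-B-cell receptor and the enzymes that act directly below it were followed in Reh cells by messenger RNA sequencing. The set holds 10 genes of the 33367 in the table, chosen by name: the receptor chains CD79A, CD79B, VPREB1 and IGLL1, the kinases LYN, BLK, SYK and BTK, the adaptor BLNK and the phospholipase PLCG2. Reh is an established human B-lymphoblastic leukaemia line that carries the ETV6::RUNX1 fusion. The 15 libraries fall into 5 groups of 3, and every group received doxycycline at 500 ng/ml. In the group ETV6_WT a doxycycline-inducible vector expressed V5-tagged wild-type ETV6, a repressor of the ETS family. In ETV6_R399C it expressed V5-tagged ETV6 with the R399C substitution, which lies in the DNA-binding ETS domain. In tagBFP it expressed a blue fluorescent protein. These 9 libraries were made after 48 h of induction. In sgERG the cells carried inducible dCas9-KRAB, in which a transcriptional repressor domain is joined to a Cas9 that cannot cut, with a guide to the promoter of the ETS factor ERG, and in sgCtrl the same repressor with a non-targeting guide. These 6 libraries came from cells that were sorted by a reporter on the guide vector, then induced for 72 h. Both ETV6 proteins are tagged and made from a vector, so their groups show forced expression in 1 cell line, and the sorted cells of the guide experiment differ from the others in vector, sort and time.

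The pre-B-cell receptor is an immunoglobulin mu heavy chain paired with a surrogate light chain, built from the VPREB1 and IGLL1 proteins, and held in the membrane with the signalling chains CD79A and CD79B. On clustering, SRC-family kinases such as LYN and BLK phosphorylate the CD79 tails, SYK docks there and phosphorylates the adaptor BLNK, and BLNK brings BTK to PLCG2, which makes the second messengers for calcium release and protein kinase C. In normal precursor B cells this receptor drives a burst of division after heavy-chain rearrangement, and in mice BLNK and BTK are known as brakes on that proliferation.

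The libraries held 22040338 to 52481351 reads. ETV6, whose reads include those of the vector, reached 485.9 ± 18.1 CPM in ETV6_WT and 373.3 ± 14.7 CPM in ETV6_R399C, against 5.86 ± 0.33 CPM in tagBFP (SD, n = 3 each; CPM, reads scaled to the depth of named genes after TMM scaling). The 2 ETV6 groups thus differed in the level of ETV6 transcript as well as in its form. In every comparison between them these cannot be told apart. ERG had 105.1 ± 4.14 CPM in sgERG and 524.7 ± 6.35 CPM in sgCtrl (SD, n = 3 each), so 20% of its transcript level was left under the guide. In the same experiment ETV6 had 6.23 to 7.15 CPM in sgERG, against 12.4 to 14.6 CPM in sgCtrl. In every group, reads counted for ETV6 can include those of the ETV6::RUNX1 fusion, which were not told apart from those of ETV6 itself. ERG had 320.6 to 334.6 CPM in ETV6_WT and 299.4 to 306.0 CPM in ETV6_R399C, against 296.1 to 307.0 CPM in tagBFP. The labelled cell type was checked by summed markers. Those of B-lineage leukaemia (8 genes such as PAX5, EBF1 and RAG1) added up to 5277 to 8684 CPM in each library, T-cell markers to at most 1.35 CPM, erythroid markers to at most 0.12 CPM and myeloid markers to 16.5 to 35.5 CPM. The B-lineage sum itself was higher in ETV6_WT (6927 to 7098 CPM) and in ETV6_R399C (6337 to 6482 CPM) than in tagBFP (5277 to 5335 CPM). It was lower in sgERG (7535 to 7859 CPM) than in sgCtrl (8514 to 8684 CPM), but a sum follows its most abundant genes. The median log2 fold change of the 8 genes was 0.32 in ETV6_WT and 0.25 in ETV6_R399C over tagBFP, and -0.03 in sgERG over sgCtrl. Over tagBFP, all 8 were called higher in ETV6_WT (threshold given below), and 7 were higher and none lower in ETV6_R399C. Of all genes tested, 17.6% and 18.8% were higher in these comparisons. In sgERG over sgCtrl 2 of the 8 were called higher and 3 lower, where 6.89% and 7.74% of all genes were. The part of these differences in the results below was not tested.

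ETS factors such as ETV6 and ERG recognise a GGAA core, so the promoter windows of 5 members whose transcripts changed between groups are shown with GGAA and, on the other strand, TTCC in capitals. Each window is 300 bases, 250 before and 50 after a start site, from RefSeq on GRCh38.p14, read 5′ to 3′ on the gene's strand.
PLCG2, chr16:81738791-81739090, forward strand: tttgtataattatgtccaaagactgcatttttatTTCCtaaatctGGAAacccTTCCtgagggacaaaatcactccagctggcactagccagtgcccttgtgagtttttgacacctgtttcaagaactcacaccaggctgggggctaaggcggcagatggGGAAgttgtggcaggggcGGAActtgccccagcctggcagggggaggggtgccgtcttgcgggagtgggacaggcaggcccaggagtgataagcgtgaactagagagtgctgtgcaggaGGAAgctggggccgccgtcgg
BLNK, chr10:96271520-96271819, reverse strand: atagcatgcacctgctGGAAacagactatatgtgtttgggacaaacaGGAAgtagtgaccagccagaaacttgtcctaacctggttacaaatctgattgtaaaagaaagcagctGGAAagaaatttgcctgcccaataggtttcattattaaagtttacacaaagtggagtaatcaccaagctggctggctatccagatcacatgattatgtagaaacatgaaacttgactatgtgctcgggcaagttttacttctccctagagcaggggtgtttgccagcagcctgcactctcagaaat
SYK, chr9:90801569-90801868, forward strand: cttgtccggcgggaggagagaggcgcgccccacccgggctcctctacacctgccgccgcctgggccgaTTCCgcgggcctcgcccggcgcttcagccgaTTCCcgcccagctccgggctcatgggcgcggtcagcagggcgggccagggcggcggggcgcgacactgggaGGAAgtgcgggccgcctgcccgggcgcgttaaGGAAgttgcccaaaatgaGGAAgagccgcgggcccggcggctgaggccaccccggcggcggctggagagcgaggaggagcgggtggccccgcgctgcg
BTK, chrX:101390747-101391046, reverse strand: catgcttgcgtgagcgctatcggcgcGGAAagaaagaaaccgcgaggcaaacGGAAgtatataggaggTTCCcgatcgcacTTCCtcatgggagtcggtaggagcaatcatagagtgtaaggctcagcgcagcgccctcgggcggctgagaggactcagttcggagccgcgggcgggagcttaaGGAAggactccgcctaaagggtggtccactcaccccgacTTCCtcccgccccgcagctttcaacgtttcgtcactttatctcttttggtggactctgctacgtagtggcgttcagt
IGLL1, chr22:23580241-23580540, reverse strand: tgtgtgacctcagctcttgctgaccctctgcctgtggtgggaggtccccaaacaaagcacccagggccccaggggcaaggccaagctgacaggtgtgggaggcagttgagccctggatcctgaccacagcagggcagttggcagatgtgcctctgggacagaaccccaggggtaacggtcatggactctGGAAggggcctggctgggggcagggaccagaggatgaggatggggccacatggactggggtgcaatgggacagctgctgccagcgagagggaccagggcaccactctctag
The counts of the core in these windows were 6 in PLCG2, 3 in BLNK, 5 in SYK, 6 in BTK and 1 in IGLL1. The window of CD79A, which also changed, held 3, and further windows of SYK and BTK held 4 or 5. Those windows are not shown. Over all 35116 RefSeq windows of this length 95.45% held at least 1 and the median was 3, with both strands searched and overlaps allowed. The tandem form GGAAGGAA was in none of the 10 windows used for 7 members, against 3.67% of all windows. Windows of BLK and LYN were left out of the search, and none was available for CD79B. The IGLL1 window also held 4 matches to CCCNNGGG, the core recognised by EBF1, and 1.19% of all windows held 3 or more. The 4 matches overlap in pairs that start 1 base apart, each pair within a stretch CCCCAGGGG, so separate sites are fewer than matches. Overlaps were counted in this way in all windows. The IGLL1 count is named as the highest of this core in the 10 windows. A BTK window and the VPREB1 window held 1 match, and the rest held none. The other motif searched, CAGCTG, had 1 match each in BLNK, IGLL1 and PLCG2, where 17.95% of all windows held at least 1. A match describes these letters only, and no binding was measured.

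Wild-type ETV6 went with more CD79B, PLCG2, BLNK and IGLL1 transcript and less BTK and LYN. The R399C form went with more CD79B and PLCG2 as well, and with more IGLL1, CD79A, SYK and BLK, and less BTK. ERG repression went with more BLK, SYK and LYN and slightly less PLCG2. The largest of all these changes was CD79B at 1.6-fold in ETV6_WT over tagBFP. Some of these calls were lost in part of the alternative fits described below. They are LYN and PLCG2 under ERG repression, LYN with wild-type ETV6, and BTK and BLK with the R399C form.

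Changes were called at an adjusted p under 0.05 from the edgeR quasi-likelihood test, adjusted by Benjamini-Hochberg across all genes tested, and every adjusted p below comes from it. VPREB1 had no reads and was not tested, which leaves 9 of the 10 members. In ETV6_WT over tagBFP, 4 members were higher and 2 lower, where 36.5% of all 14242 genes tested were called (17.6% higher and 18.9% lower). In ETV6_R399C over tagBFP, 6 were higher and 1 lower, and 40.9% of all genes were called (18.8% higher and 22.1% lower). In ETV6_WT over ETV6_R399C, 1 was higher and 3 lower, and 21.4% of all genes were called (12.1% higher and 9.29% lower). In sgERG over sgCtrl, 3 were higher and 1 lower, and 14.6% of the 13464 genes tested were called (6.89% higher and 7.74% lower). The libraries of the 2 groups did not overlap for 7, 8, 6 and 5 of the 9 members in these comparisons, in that order, against 48.2%, 50.8%, 38.4% and 34.6% of all genes tested. Changes of at least 1.5-fold with a call were found for CD79B alone among the members, in both comparisons with tagBFP, against 6.51%, 5.64%, 3.08% and 4.09% of all genes in the 4 comparisons. The median log2 fold change of the 9 members was 0.08, 0.16, -0.08 and 0.03 in these 4 comparisons, against 0.00, 0.00, 0.02 and 0.00 for all genes tested. The 2 comparisons with tagBFP share its libraries, and nothing in the labels says that replicates were separate cultures, so p-values measure only the spread between these libraries, which may be technical.

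**Figure D1:**
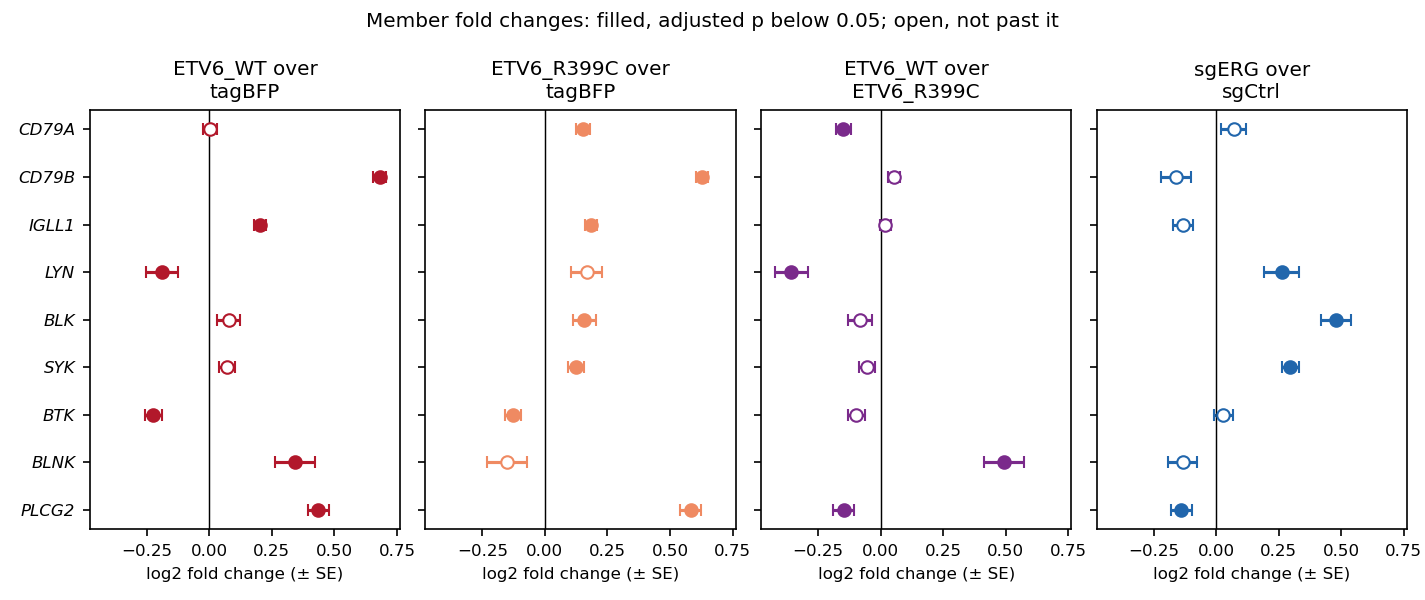
Log2 fold change (x axis) of the 9 detected members (rows) in 4 comparisons; bars are the SE from edgeR, filled points have an adjusted p below 0.05 and open points do not. CD79B and PLCG2 lie farthest right with either ETV6 protein, BLNK has a filled point right of 0 in the comparisons with ETV6_WT on top, and BLK, SYK and LYN lie right of 0 in sgERG over sgCtrl.

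On the per-length scale, the receptor chains other than VPREB1 were the most abundant members. Summed TPM (a level scaled to length and depth) of IGLL1 averaged 845.7 in ETV6_WT, 878.5 in ETV6_R399C, 724.4 in tagBFP, 955.5 in sgERG and 1041 in sgCtrl. CD79A and CD79B followed with group means of 458.9 to 955.5 TPM, CD79B being the first of the set in both ETV6 groups and IGLL1 in the other 3. The adaptor and BTK were next in the 9 libraries of the ETV6 experiment, BLNK with group means of 88.1 to 115.6 TPM and BTK with 100.9 to 122.2 TPM, and their order changed between groups. LYN was the least abundant detected member in all 5 groups, with group means of 5.24 to 9.93 TPM, below BLK with 23.5 to 35.6 TPM. SYK stood at 44.0 TPM in ETV6_WT, 48.7 TPM in ETV6_R399C and 41.7 TPM in tagBFP, against 141.2 TPM in sgERG and 112.5 TPM in sgCtrl. That gap runs between the experiments, whose vector, sort and induction time cannot be told apart, and it was not tested.

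**Figure D2:**
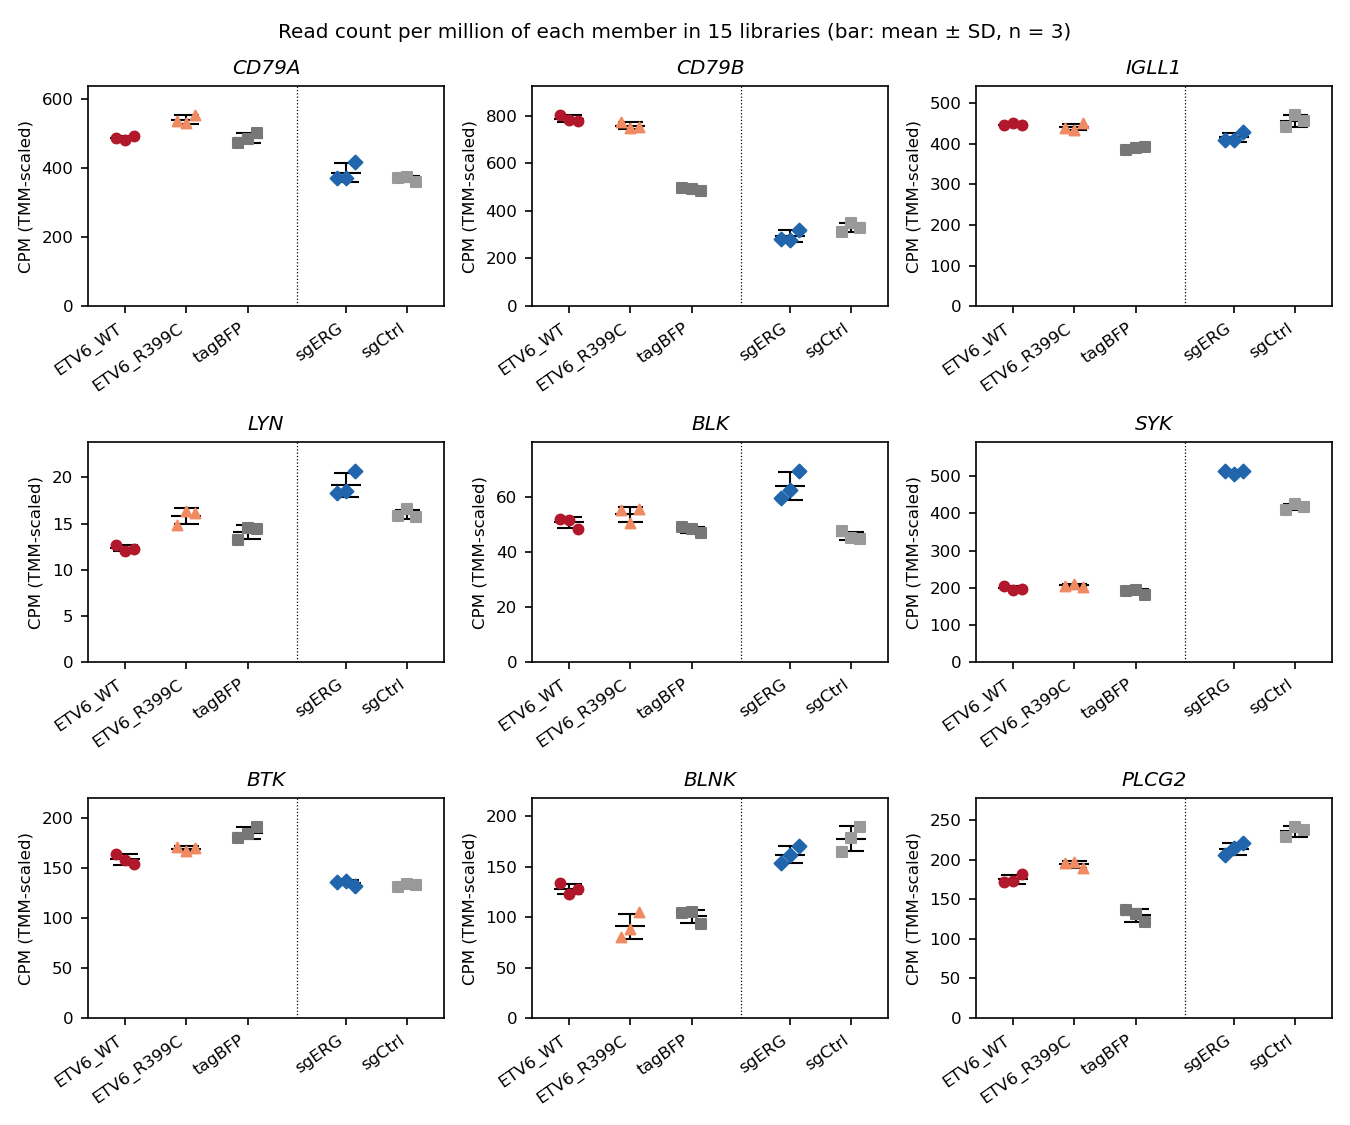
TMM-scaled CPM (y axis, from 0) of the 9 detected members in each of 15 libraries, by group (x axis); points are libraries, bars mean ± SD (n = 3), and the dotted line parts the ETV6 experiment from the guide experiment, which were scaled separately. CD79B stands at 748 to 804.5 CPM in both ETV6 groups and at 484 to 497 CPM in tagBFP, and BLK and SYK are higher in each sgERG library than in each sgCtrl library.

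CD79B encodes the Ig-beta signalling chain, one arm of the CD79 heterodimer. It had 804.5, 780.7 and 776.8 CPM in ETV6_WT and 775.0, 748.0 and 752.4 CPM in ETV6_R399C, against 496.9, 492.2 and 484.2 CPM in tagBFP. All 6 libraries with an ETV6 protein lay above all 3 tagBFP libraries. The log2 fold change was 0.68 ± 0.03 (SE, adjusted p = 4.7e-09) in ETV6_WT over tagBFP and 0.63 ± 0.03 (SE, adjusted p = 1.5e-08) in ETV6_R399C over tagBFP. Wild-type over R399C it was 0.05 ± 0.03 (SE, adjusted p = 0.16), which does not pass the threshold. CD79B had 283.9, 278.0 and 321.8 CPM in sgERG, against 311.9, 349.7 and 326.2 CPM in sgCtrl, and these ranges overlap (log2 fold change -0.16, adjusted p = 0.11). Without sgERG replicate 3, the highest of its group, that difference was called (-0.23, adjusted p = 0.0067). CD79B shares 288 exon bases with AC127029.3 on the same strand, a gene not analysed here, so some of its reads are uncertain.

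CD79A encodes Ig-alpha, the partner of Ig-beta. Its reads stood at 486.1, 482.0 and 493.3 CPM in ETV6_WT and at 535.8, 529.1 and 554.4 CPM in ETV6_R399C, against 473.1, 482.6 and 502.5 CPM in tagBFP. The R399C libraries were above all others, and the ETV6_WT libraries lay inside the tagBFP range. CD79A was 1.11-fold higher in ETV6_R399C than in tagBFP (log2 fold change 0.15 ± 0.03 (SE), adjusted p = 0.0014) and lower in ETV6_WT than in ETV6_R399C (-0.15 ± 0.03 (SE), adjusted p = 0.0040), with 0.00 ± 0.03 (SE, adjusted p = 0.95) in ETV6_WT over tagBFP. In the guide experiment it had 370.0, 371.4 and 417.6 CPM in sgERG and 370.0, 374.5 and 358.7 CPM in sgCtrl, where 1 sgERG library stood apart and no change was called (0.07, adjusted p = 0.39).

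Both CD79 chains are needed in equal number for the heterodimer, so their ratio within a library, which needs no scaling between libraries, was also taken. The ratio of CD79B to CD79A TPM was 1.65 ± 0.04 in ETV6_WT, 1.42 ± 0.04 in ETV6_R399C and 1.04 ± 0.04 in tagBFP (SD, n = 3 each). It was 0.838 ± 0.024 in sgERG and 0.958 ± 0.047 in sgCtrl (SD, n = 3 each). The 3 groups of the ETV6 experiment did not overlap each other, and neither did sgERG (0.811 to 0.855) and sgCtrl (0.904 to 0.985). The ratio was chosen after the values of both genes were seen and is given as a description with no test.

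**Figure D3:**
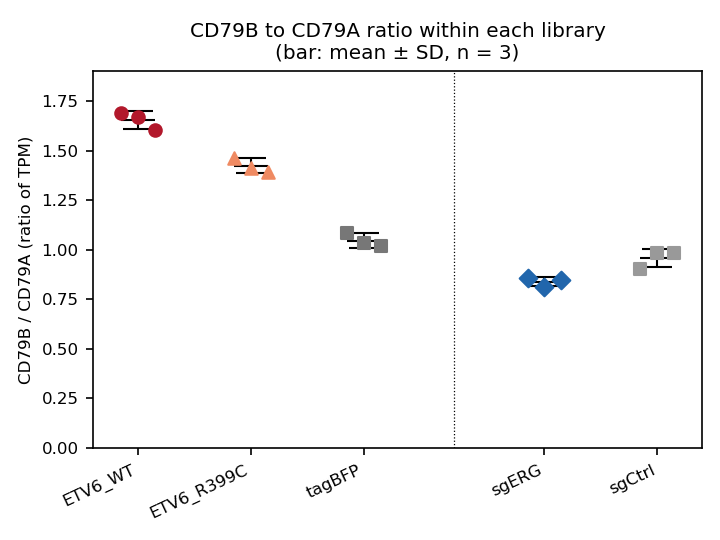
Ratio of CD79B to CD79A TPM (y axis, from 0) within each of 15 libraries, by group (x axis); points are libraries and bars mean ± SD (n = 3). The ETV6_WT libraries are at 1.61 to 1.69 and the ETV6_R399C libraries at 1.39 to 1.46, above the tagBFP libraries at 1.02 to 1.09.

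The surrogate light chain has a constant-like part, encoded by IGLL1, and a variable-like part, encoded by VPREB1. IGLL1 had 446.3, 451.4 and 445.9 CPM in ETV6_WT and 439.6, 435.2 and 451.1 CPM in ETV6_R399C, against 384.7, 389.8 and 393.0 CPM in tagBFP. Both ETV6 groups lay above tagBFP and overlapped each other, with log2 fold changes over tagBFP of 0.20 ± 0.02 (SE, adjusted p = 4.4e-05) for wild type and 0.18 ± 0.02 (SE, adjusted p = 8.7e-05) for R399C. The guide to ERG gave 409.6, 409.8 and 430.0 CPM in sgERG, against 441.4, 472.2 and 456.5 CPM in sgCtrl. These 2 groups did not overlap, as for 34.6% of all genes tested, and the difference just missed the threshold (-0.13 ± 0.04 (SE), adjusted p = 0.052; -0.16, adjusted p = 0.011 without sgERG replicate 3). IGLL5, which closely resembles IGLL1, was listed at 0 in every library, and summing both left the IGLL1 values as they were. VPREB1 also had no reads in any of the 15 libraries, although both of its annotated transcripts are listed. Over the 449010985 reads of named genes a count of 0 allows at most 0.00668 CPM (3 counts, counting error only), and in the shallowest library 0.147 CPM. Transcripts whose genes are not named here were not searched for it.

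LYN encodes the SRC-family kinase that starts signalling at the CD79 tails and also feeds inhibitory receptors. It had 12.7, 12.1 and 12.3 CPM in ETV6_WT and 14.8, 16.4 and 16.2 CPM in ETV6_R399C, against 13.2, 14.5 and 14.4 CPM in tagBFP. The ETV6_WT libraries were the lowest and the R399C libraries the highest of the 9. LYN was lower in ETV6_WT than in ETV6_R399C (log2 fold change -0.36 ± 0.07 (SE), adjusted p = 0.0026), a call that held under every alternative tried. Against tagBFP the wild-type difference was -0.19 ± 0.07 (SE, adjusted p = 0.040) and that of R399C 0.17 ± 0.06 (SE, adjusted p = 0.054). The first of these was lost in 8 of 17 alternatives, among them the fits without ETV6_WT replicate 2 or 3 or tagBFP replicate 2 or 3 (adjusted p of 0.079, 0.10, 0.075 and 0.068), and the second was called in 5 of 17, among them the fit without ETV6_R399C replicate 1 (0.23, adjusted p = 0.022). In sgERG LYN had 18.3, 18.5 and 20.7 CPM, against 15.8, 16.5 and 15.7 CPM in sgCtrl. It was higher in each sgERG library (0.26 ± 0.07 (SE), adjusted p = 0.031), but the call was lost without sgERG replicate 2 or 3 or any sgCtrl replicate, with adjusted p of 0.052 to 0.13.

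BLK, the B-lineage member of the SRC family, had 59.6, 62.7 and 69.6 CPM in sgERG, against 47.5, 45.2 and 44.8 CPM in sgCtrl. Every sgERG library was above every sgCtrl library, and at 1.39-fold this was the largest change of a member in that comparison (log2 fold change 0.48 ± 0.06 (SE), adjusted p = 4.5e-04). In the ETV6 experiment BLK had 52.2, 51.8 and 48.3 CPM in ETV6_WT and 55.1, 50.4 and 55.5 CPM in ETV6_R399C, against 49.0, 48.4 and 46.9 CPM in tagBFP. The ETV6_WT range overlapped that of tagBFP (0.08 ± 0.05 (SE), adjusted p = 0.23), and the ETV6_R399C range did not (0.16 ± 0.05 (SE), adjusted p = 0.016; 0.13, adjusted p = 0.060 without ETV6_R399C replicate 3). BLK shares 65 exon bases with the antisense gene AC022239.1, and the strand setting of the quantification is not given in the sources used here.

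SYK encodes the kinase that binds the phosphorylated CD79 tails. Its reads reached 514.1, 507.2 and 515.0 CPM in sgERG, against 408.7, 424.3 and 418.4 CPM in sgCtrl. The groups were far apart relative to their spread, and SYK was 1.23-fold higher in sgERG (log2 fold change 0.30 ± 0.03 (SE), adjusted p = 2.5e-04). The ETV6 experiment gave 204.1, 195.0 and 196.7 CPM in ETV6_WT and 205.0, 211.1 and 202.1 CPM in ETV6_R399C, against 192.1, 193.7 and 181.7 CPM in tagBFP. The R399C libraries exceeded tagBFP (0.12 ± 0.03 (SE), adjusted p = 0.0095), and the wild-type difference of 0.07 ± 0.03 (SE, adjusted p = 0.12) did not pass the threshold. SYK did not pass it in ETV6_WT over ETV6_R399C either (-0.05, adjusted p = 0.28).

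BTK, the TEC-family kinase that activates PLCG2, was the member that fell with both ETV6 proteins. It had 164.3, 158.0 and 153.6 CPM in ETV6_WT and 171.2, 166.9 and 170.2 CPM in ETV6_R399C, against 179.7, 184.5 and 191.3 CPM in tagBFP. The 3 groups did not overlap and stood in the order ETV6_WT, ETV6_R399C, tagBFP. The log2 fold change was -0.22 ± 0.03 (SE, adjusted p = 2.6e-04) for wild type and -0.13 ± 0.03 (SE, adjusted p = 0.0083) for R399C over tagBFP, and the difference between the ETV6 proteins missed the threshold (-0.10 ± 0.03 (SE), adjusted p = 0.060), though it was called in 8 of 17 alternatives, among them the fit without ETV6_WT replicate 1 (-0.14, adjusted p = 0.022). The R399C call was lost when a transcript length offset was used (-0.15, adjusted p = 0.15). BTK was close to level in the guide experiment, with 136.5, 137.2 and 132.5 CPM in sgERG and 130.6, 134.5 and 133.0 CPM in sgCtrl (0.03, adjusted p = 0.66).

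BLNK encodes the adaptor that joins SYK to BTK and PLCG2, and it was the member on which the 2 ETV6 proteins differed most. BLNK had 133.4, 123.2 and 127.4 CPM in ETV6_WT and 80.2, 87.9 and 104.7 CPM in ETV6_R399C, against 104.2, 104.7 and 93.5 CPM in tagBFP. The 3 wild-type libraries were above all 6 others, while the R399C and tagBFP ranges overlapped. The log2 fold change was 0.34 ± 0.08 (SE, adjusted p = 0.0057) in ETV6_WT over tagBFP and 0.49 ± 0.08 (SE, adjusted p = 0.0014) in ETV6_WT over ETV6_R399C, and both calls held under every alternative tried. For ETV6_R399C over tagBFP it was -0.15 ± 0.08 (SE, adjusted p = 0.17). That value depends on single libraries: it was -0.27 (adjusted p = 0.0053) without ETV6_R399C replicate 3, the highest of its group, and -0.05 (adjusted p = 0.68) without replicate 1, the lowest. In sgERG BLNK had 153.5, 161.3 and 170.8 CPM, against 164.6, 178.5 and 189.5 CPM in sgCtrl, which overlap (-0.13, adjusted p = 0.16). BLNK shares 355 exon bases with ZNF518A on the other strand, a gene not analysed here.

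PLCG2 encodes the phospholipase that BTK and SYK activate. It had 171.9, 173.0 and 182.3 CPM in ETV6_WT and 195.8, 197.8 and 189.7 CPM in ETV6_R399C, against 136.8, 131.4 and 121.1 CPM in tagBFP. The 3 groups did not overlap, with R399C the highest and tagBFP the lowest. PLCG2 was higher in ETV6_R399C (log2 fold change 0.58 ± 0.04 (SE), adjusted p = 1.4e-06) and, at 1.35-fold, in ETV6_WT than in tagBFP (0.44 ± 0.04 (SE), adjusted p = 1.2e-05). ETV6_WT was lower than ETV6_R399C (-0.15 ± 0.04 (SE), adjusted p = 0.030), a call lost in 5 of 17 alternatives, among them the fits without replicate 1 or 2 of either group (adjusted p of 0.064 to 0.10). ERG repression gave the opposite sign, with 206.1, 215.3 and 221.3 CPM in sgERG, against 228.6, 241.9 and 237.8 CPM in sgCtrl. This decrease was at the threshold (-0.14 ± 0.04 (SE), adjusted p = 0.049) and was lost in 9 of 16 alternatives, among them those without sgERG replicate 1 or 2 or any sgCtrl replicate (adjusted p of 0.083 to 0.18). PLCG2 shares exon bases on the same strand with AC099524.1 and RN7SKP176, which are not analysed here.

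The reads of several members fell on different annotated transcripts. For each detected member, the 2 transcripts with the most reads on average over all 15 libraries were taken, which gives deeper libraries more weight. Their share of the gene's reads was compared between groups by a two-sided exact permutation test over libraries. With 3 against 3, this exact permutation test cannot go below p = 0.1. Of 72 such tests, 3 could show nothing, because BLNK-201 is listed at 0 reads throughout the ETV6 experiment, and BLNK-202, the main transcript there, was not among those tested. Of the 72, 1 reached 0.1. It was PLCG2-201, whose share was 0.5 percentage points higher in sgERG than in sgCtrl. The rest were above 0.1, which at this size does not show that the shares were alike. The shares of some BLNK, SYK, BLK, CD79A, CD79B and IGLL1 transcripts did not overlap between the 2 experiments, a difference that was not tested. The BLNK exon concerned is printed with the SYK exon that parts the long and short forms of SYK. The sequences are those of GENCODE 29 transcripts on hg38, 5′ to 3′.
BLNK exon 8 of BLNK-201, chr10:96215321-96215389, reverse strand: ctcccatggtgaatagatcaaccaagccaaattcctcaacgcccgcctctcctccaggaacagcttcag
SYK exon 7 of SYK-204, chr9:90867131-90867199, forward strand: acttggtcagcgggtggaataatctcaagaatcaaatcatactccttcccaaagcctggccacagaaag
The 69-base BLNK exon is present in BLNK-201 and absent from BLNK-202, and is the only difference between these 2 transcripts. BLNK-201 was listed at 0 reads in all 9 libraries of the ETV6 experiment, where BLNK-202 took 40.1% to 59.7% of the reads of BLNK. In the 6 libraries of the guide experiment BLNK-201 took 54.4% to 68.6% (2860 to 6323 reads) and BLNK-202 0% to 8.98%. BLNK-203 was present in both, with 22.4% to 38.5% and 18.7% to 25.8%. A 69-base exon of another sequence parts SYK-204, the long form of SYK, from SYK-202, which lacks it. SYK-204 dominated throughout, with 94.2% to 98.1% of SYK reads in the ETV6 experiment and at most 97.6% in the guide experiment, ranges that overlap, while SYK-202 took 1.8% to 5.71% in the ETV6 experiment and 0% to 0.73% in the guide experiment. LYN reads were divided between LYN-204 (48.8% to 74.4%, and 47.8% to 71.8% in the guide experiment) and LYN-202, on 269 to 762 reads of the gene per library. CD79A-203 took 0.22% to 0.47% of CD79A reads in the ETV6 experiment and 11.4% to 11.8% in the guide experiment, and IGLL1-203 took 6.21% to 8.28% and 21.9% to 23.2% of IGLL1 reads. In the same order, BLK-201 took 56.08% to 80.37% and 85.31% to 94.45% of BLK reads. CD79B-203 took 53.65% to 60.02% and 48.74% to 52.29% of CD79B reads. The median length minus effective length, which follows fragment size, was 334.8 to 352.8 bases in the ETV6 experiment and 277.4 to 292.3 bases in the guide experiment. Its part in these shares was not tested, nor was it tested whether a transcript listed at 0 is a failed estimate.

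**Figure D4:**
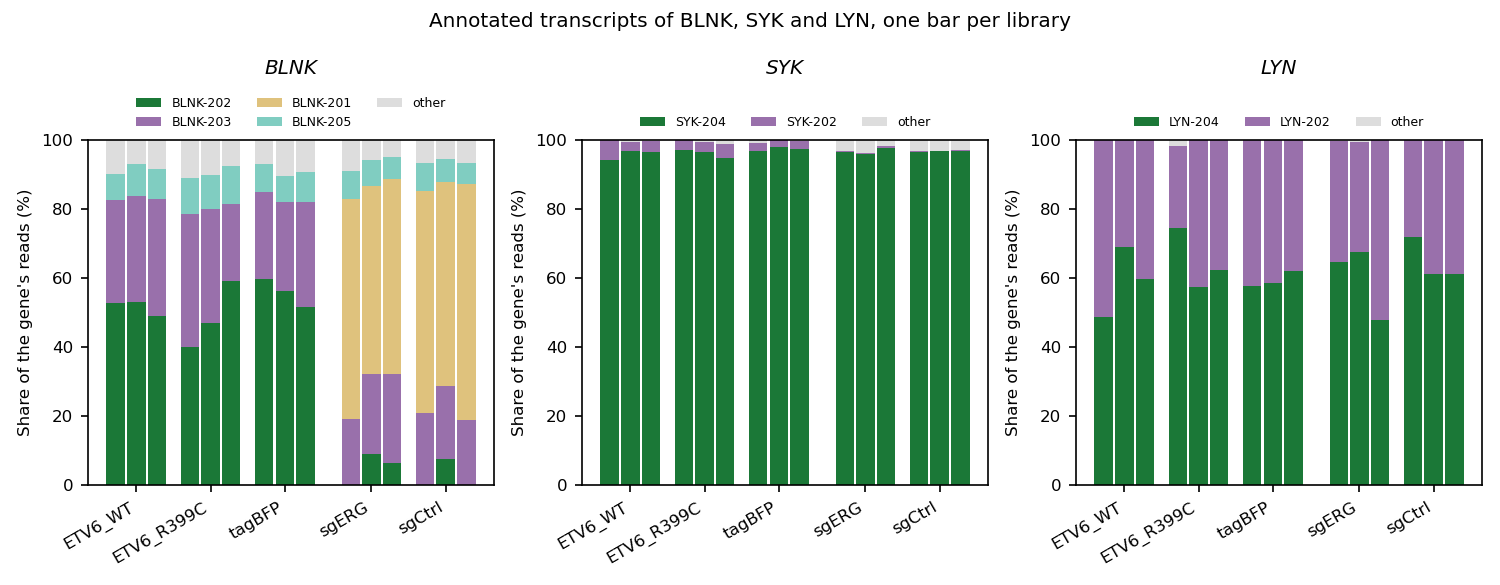
Share of each gene's reads (y axis, percent) on its annotated transcripts in BLNK, SYK and LYN, one stacked bar per library, with groups along the x axis. BLNK-201 is missing from all 9 bars of the ETV6 experiment and takes 54.4% to 68.6% in the 6 of the guide experiment, while SYK-204 fills at least 94.2% of every SYK bar.

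Around the members, 109 genes in 7 lists of pathway partners were followed, of which PTPRC and ORAI1 are not analysed here. Among immunoglobulin chains and partners of the surrogate light chain, 3 of 8 genes were tested. With wild-type ETV6, 2 of the 3 were higher and none lower (17.6% of all genes tested were higher), and their median log2 fold change was 0.55, against 0.00 for all genes tested. IGHM, the constant gene of the mu heavy chain, had 184.9 ± 5.9 CPM in ETV6_WT and 162.6 ± 15.1 CPM in ETV6_R399C, against 118.0 ± 10.8 CPM in tagBFP (SD, n = 3 each). Its log2 fold changes over tagBFP were 0.65 and 0.47 (adjusted p = 2.9e-05 and 3.2e-04). Transcripts of a rearranged heavy chain were not told apart from other IGHM transcripts, so these values do not show that a mu chain was made. VPREB3, a relative of VPREB1 that binds newly made mu chains, was also higher in ETV6_WT (0.55, adjusted p = 3.3e-05) and in ETV6_R399C (0.22, adjusted p = 0.014). Under ERG repression IGHM and IGHD were higher (0.22 and 0.30, adjusted p = 0.013 and 0.011) and VPREB3 lower (-0.24, adjusted p = 0.039). The constant genes IGKC and IGLC2 were listed at 0 in every library, and IGLC1 reached at most 0.0482 CPM, in ETV6_R399C.

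Of 11 tested kinases related to the members, 5 were higher and 2 lower in ETV6_WT, and 5 were higher and 1 lower in ETV6_R399C, over tagBFP, where 36.5% and 40.9% of all genes tested were called (17.6% and 18.8% higher). CSK, which switches SRC-family kinases off, had 333.2 ± 3.1 CPM in ETV6_WT and 319.8 ± 5.2 CPM in ETV6_R399C, against 262.7 ± 7.0 CPM in tagBFP (SD, n = 3 each; adjusted p = 1.7e-06 and 8.9e-06). TEC, a relative of BTK, separated the ETV6 proteins, with 10.6 ± 0.5 CPM in ETV6_WT and 18.9 ± 0.5 CPM in ETV6_R399C (SD, n = 3 each; adjusted p = 5.1e-06). Of 10 tested in sgERG over sgCtrl, 3 were higher and 3 lower, where 6.89% of all genes were higher and 7.74% lower. ZAP70, the relative of SYK, was among the higher genes (log2 fold change 1.05, adjusted p = 2.5e-04). PTK2B was among the lower ones (-0.31, adjusted p = 0.0011).

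Of 15 co-receptors and adaptors tested, 8 were higher and 2 lower in ETV6_WT over tagBFP (median log2 fold change 0.28), and 7 were higher and 1 lower in ETV6_R399C over tagBFP (median 0.25). Of all genes tested, 17.6% and 18.8% were higher in these comparisons, with medians of 0.00. The adaptors GAB1 and SH3BP2 rose with wild type by 0.89 and 0.98 and with R399C by 1.04 and 1.25 on the log2 scale (adjusted p of 6.8e-09, 4.2e-08, 3.4e-09 and 1.0e-08). In sgERG over sgCtrl, 3 of 15 were higher and 1 lower, against 6.89% higher and 7.74% lower of all genes. The lower one was GAB2 (-0.29, adjusted p = 4.1e-04). CD81, a tetraspanin co-receptor, was higher (0.33, adjusted p = 0.0016), as was LAT, the T-cell counterpart of such adaptors, which stood at 7.85 ± 0.54 CPM in sgERG and 2.97 ± 0.72 CPM in sgCtrl (SD, n = 3 each; adjusted p = 2.6e-04).

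Of 19 inhibitory receptors, phosphatases and ubiquitin ligases tested, 9 were higher and 1 lower for each ETV6 protein over tagBFP, where 17.6% (wild type) and 18.8% (R399C) of all genes were higher and 18.9% and 22.1% lower. PAG1, the membrane anchor of CSK, had 229.3 ± 0.5 CPM in ETV6_WT and 255.6 ± 9.0 CPM in ETV6_R399C, against 104.5 ± 8.2 CPM in tagBFP (SD, n = 3 each; adjusted p = 1.1e-08 and 7.4e-09). In the guide experiment PAG1 went the other way, with 155.6 ± 10.9 CPM in sgERG and 266.7 ± 5.2 CPM in sgCtrl (SD, n = 3 each; adjusted p = 4.1e-06). CD22, an inhibitory lectin, showed the same pair of signs (log2 fold changes 0.40 in ETV6_WT over tagBFP, adjusted p = 1.2e-07, and -0.43 in sgERG over sgCtrl, adjusted p = 2.3e-05). CD72, another inhibitory co-receptor, was higher in both comparisons (0.87, adjusted p = 7.7e-07, and 0.94, adjusted p = 2.4e-06). In sgERG over sgCtrl, 2 of 18 tested were higher and 5 lower, against 6.89% and 7.74% of all genes.

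PLCG2 feeds a branch of calcium and diacylglycerol signalling. In the list of that branch, 8 of 22 tested were higher and 3 lower in ETV6_WT over tagBFP, 11 were higher and 3 lower in ETV6_R399C over tagBFP, and none was higher and 5 lower in sgERG over sgCtrl. The called shares of all genes tested were 36.5%, 40.9% and 14.6%. The 5 genes lower in sgERG included PRKCB, a protein kinase C isoform that diacylglycerol activates (165.6 ± 6.4 CPM in sgERG and 219.3 ± 7.4 CPM in sgCtrl; SD, n = 3 each; adjusted p = 1.5e-04), and the exchange factors VAV1 and VAV3 (log2 fold changes -0.27 and -0.40, adjusted p = 0.0022 and 2.0e-04). DGKA, which removes diacylglycerol, was higher in both ETV6 groups (0.63 and 0.61 over tagBFP, adjusted p = 9.3e-08 and 1.9e-07). In the PI3-kinase branch 7 of 12 were higher and 2 lower in ETV6_WT over tagBFP, 6 were higher and none lower in ETV6_R399C over tagBFP, and 1 was higher and 1 lower in sgERG over sgCtrl. Against the same called shares of all genes, the count for sgERG is near the general rate. PIK3CD, the catalytic subunit typical of lymphocytes, was higher in ETV6_WT (0.65, adjusted p = 4.7e-09), ETV6_R399C (0.56, adjusted p = 2.7e-08) and sgERG (0.25, adjusted p = 0.0011).

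Of the transcription factors known to act on pre-B-cell receptor genes, 10 of 12 tested were higher and 1 lower in ETV6_WT over tagBFP (median log2 fold change 0.29), and 12 of 12 were higher in ETV6_R399C over tagBFP (median 0.37). Of all genes tested, 17.6% and 18.8% were higher in these comparisons, with medians of 0.00. SPIB, an ETS factor of B cells, had 73.6 ± 1.9 CPM in ETV6_WT and 67.3 ± 1.2 CPM in ETV6_R399C, against 41.6 ± 2.0 CPM in tagBFP (SD, n = 3 each; adjusted p = 2.9e-08 and 2.0e-07). It was also the most changed of the list under ERG repression, at 47.2 ± 3.3 CPM in sgERG and 14.8 ± 0.6 CPM in sgCtrl (SD, n = 3 each; 3.2-fold, adjusted p = 1.4e-07). BCL6, a repressor induced by pre-B-cell receptor signalling, split the ETV6 proteins: it was lower in ETV6_WT over tagBFP (-0.41, adjusted p = 3.7e-07), higher in ETV6_R399C over tagBFP (0.13, adjusted p = 0.0022) and lower in ETV6_WT over ETV6_R399C (-0.53, adjusted p = 2.0e-07). In sgERG over sgCtrl, 4 of 13 were higher and 4 lower, against 6.89% and 7.74% of all genes. The lower ones included BCL6 (-0.51, adjusted p = 3.9e-05) and MEF2C, which acts in B cells downstream of the receptor (-0.65, adjusted p = 1.4e-06). RUNX1, whose reads include those of the ETV6::RUNX1 fusion, was lower there too (-0.47, adjusted p = 2.3e-05).

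**Figure D5:**
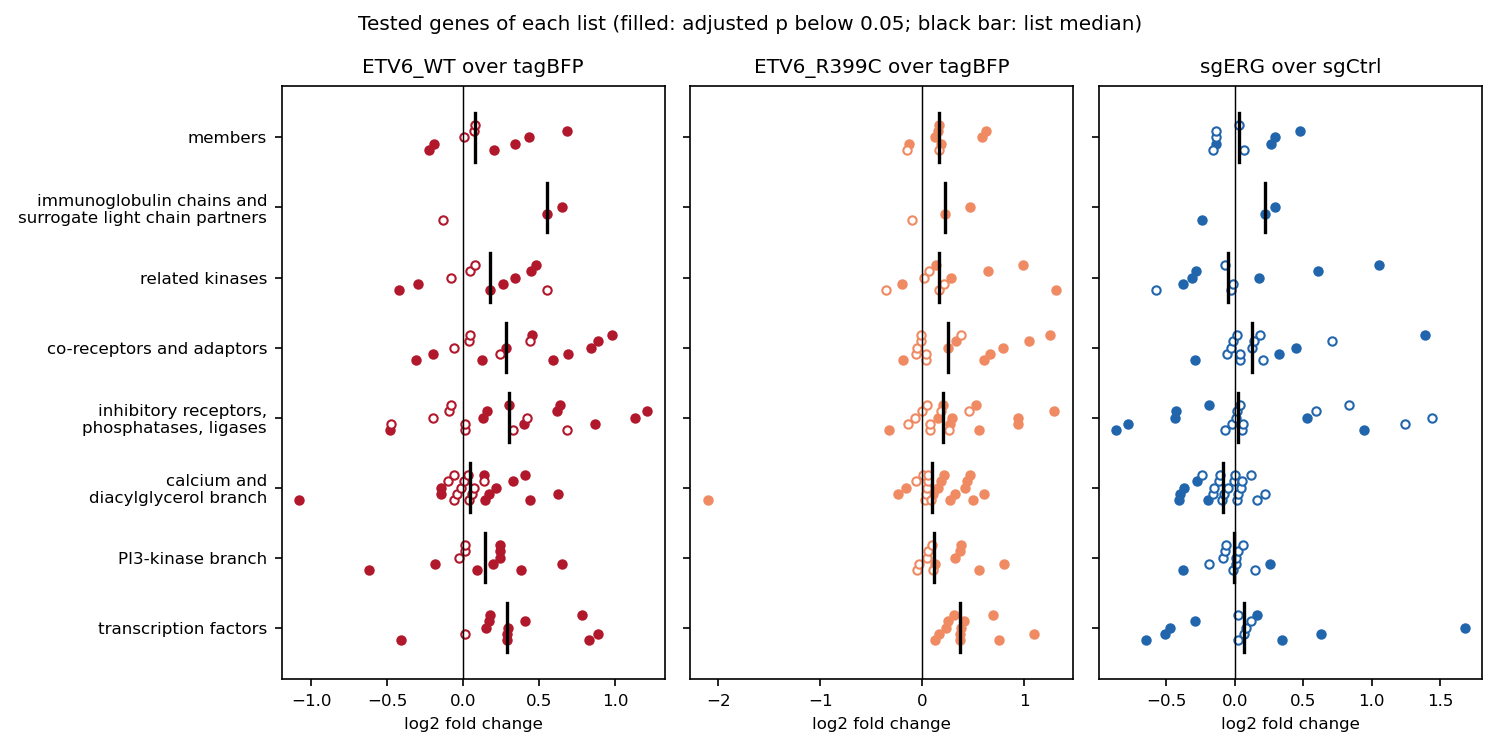
Log2 fold change (x axis) of every tested gene in the members and 7 lists (rows) in 3 comparisons; filled points have an adjusted p below 0.05, open points do not, and black bars are list medians. The transcription factors are right of 0 in ETV6_R399C over tagBFP (median 0.37), and the calcium and diacylglycerol branch has no filled point right of 0 in sgERG over sgCtrl.

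The genes most like each member were found by Pearson's r of log2 CPM, centred within each experiment, over the 15 libraries and among 10243 protein-coding genes. These libraries share their 5 groups, so r is a description of group differences. CD79B was most like LAPTM5 (r = 0.979) and DUSP1 (r = 0.978), and PLCG2 most like NRXN2 (r = 0.980) and EIF2AK3 (r = 0.976). The nearest for IGLL1 was EIF4E3 (r = 0.958), for SYK EFEMP1 (r = 0.956), for BLK TWF2 (r = 0.955) and for LYN CORO1A (r = 0.952). BTK came closest to PCDH18 (r = 0.943), and BLNK and CD79A had the weakest nearest genes, LPCAT1 (r = 0.918) and CTDSP1 (r = 0.913). No member was the nearest gene of another member.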

How the data were processed

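RNA sequencing libraries of Reh cells (15, in 5 groups of 3) were made with a strand-keeping kit, per the labels' protocols. The deposited values are Salmon estimated counts of reads, TPM and effective lengths per transcript, per the file headers; Salmon 0.11.3 and hg38 come from the submitters' processing notes. The deposited estimated counts carry no scaling between libraries. How strand, bias and read filters were set is not given in the sources used here. All 167268 transcripts were looked up in GENCODE 29 by identifier without version (90.3% named); the rest, with 6.67% to 7.56% of reads, were left out. Estimated counts were summed per gene, rounded and tested with edgeR 4.0.16 in R 4.3.3 (TMM, default low-count filter, quasi-likelihood test, Benjamini-Hochberg over all genes, threshold 0.05), in 1 fit of the 9 libraries of the ETV6 experiment and 1 fit of the 6 of the guide experiment. The SE is the log2 fold change divided by the square root of F. Levels between genes use deposited TPM summed per gene. Replicates of a group differed beyond sampling noise (chi-square per degree of freedom 2.79 to 13.99) and were counted singly. Library depth was 22040338 to 52481351 reads. Tested on simulated counts, the steps recovered 80.2% of 1.5-fold changes in ETV6_WT over tagBFP and 88.7% in sgERG over sgCtrl, and 46.7% and 43.4% of 1.2-fold changes (3 draws, on 14055 and 13352 genes).

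Members and lists were chosen with earlier results of these data known. Of each list, up to 4 called genes with the smallest p in ETV6_WT over tagBFP and up to 4 in sgERG over sgCtrl could be named, and for each member the 2 genes most like it; a few genes of the lists are not reported here. Alternatives covered scaling, low-count filters, DESeq2 1.42.0, a length offset, a replicate block, the libraries in the fit, protein-coding transcripts only, IGLL1 with IGLL5, and leaving out each library.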

Additional observations from a re-analysis of the deposited data

How the results depend on the processing

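Of 21 member calls in the 4 comparisons, 15 held under every alternative tried. Values that changed sign were all within 0.04 of 0 on the log2 scale. CD79A in ETV6_WT over tagBFP went to -0.009 with library totals only, to -0.012 with no low-count filter and to between -0.037 and 0.009 in fits without 1 replicate. IGLL1 in ETV6_WT over ETV6_R399C went to -0.016 with library totals only, 0 with no low-count filter, -0.001 with all 15 libraries in 1 fit, -0.004 with only the 6 libraries compared and between -0.006 and 0.034 without 1 replicate. A transcript length offset cut the genes called to 2916 in ETV6_WT over tagBFP (5202 without it), 3428 in ETV6_R399C over tagBFP (5826) and 1237 in ETV6_WT over ETV6_R399C (3044); the cause was not tested. Leaving out 1 replicate, with fewer libraries, gave 2008 to 3110 genes called in ETV6_WT over ETV6_R399C and 1160 to 2302 in sgERG over sgCtrl (1969 with all), and 2 to 5 members called in sgERG over sgCtrl. With library totals only, 39.6% of the calls in ETV6_WT over ETV6_R399C were higher, against 56.5% with TMM. Shares of TPM gave 3 transcript tests at the smallest p, against 1 by reads. Replicate numbers did not pair the samples (correlations of same-numbered libraries -0.062 to 0.069, and the best match was the same number in 6 of 24 cases); with a replicate block 2 members were called in sgERG over sgCtrl (LYN and PLCG2 lost, adjusted p = 0.068 and 0.099) and 1536 genes. Replicate error of 4.95% and 6.24% (biological coefficient of variation) and 3 libraries a group limit changes under 1.2-fold.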
